A study of Mus musculus with 12 samples.

Results

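The genes described here write, copy, remove and protect 5-methylcytosine in the mammalian oocyte and early embryo. The list holds 10 genes chosen by name: the de novo methylation genes Dnmt3a, Dnmt3b and Dnmt3l, the maintenance genes Dnmt1 and Uhrf1, the oxidation genes Tet1 and Tet3, and the imprint protection genes Dppa3, Zfp57 and Trim28. The list was drawn up with earlier results of these data known. Probe sets were matched through RefSeq transcript names, each gene was represented by its probe set of highest mean, and 9 of the 10 genes were found among 16579 genes. Tet1 matched no probe set and was not analysed here. The 9 genes were represented by 24 probe sets, which held only 10 distinct sets of values, because probe sets of different transcripts of one gene carried the same values. Dnmt3a alone had probe sets that differed.

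Polysome-bound mRNA, the fraction loaded with multiple ribosomes, was profiled on 12 oligonucleotide arrays. The 4 groups of 3 arrays were MII oocytes of Areg -/- mice, GV oocytes of Areg -/- mice, MII oocytes of wild-type mice and GV oocytes of wild-type mice. Areg encodes amphiregulin, an EGF-like growth factor made by the somatic cells of the ovulating follicle. All mice received PMSG, which stimulates follicle growth. MII oocytes, arrested in metaphase of the second meiotic division, were taken 14 h after hCG, which triggers ovulation, and GV oocytes, still in prophase of the first division, at 0 h. Both genotypes carry the same strain label, C57BL/6J 129Sv. The mutation is labelled by its gene alone, with no tissue or allele named, and the labels do not say how many mice or oocytes went into an array. The titles call the arrays biological replicates without naming separate animals, so p-values here cover only the variation among these arrays.

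In growing oocytes, Dnmt3a and its catalytically inactive partner Dnmt3l set the methylation of the maternal genome, imprints included, and this is complete before the oocyte matures. Dnmt1 copies methylation onto new DNA strands, and Uhrf1 recruits it to hemimethylated CpG. After fertilisation Tet3 oxidises 5-methylcytosine, while Dppa3, also called Stella, shields the maternal genome, and Zfp57 with its corepressor Trim28 holds methylation at imprinted loci. Transcription is largely silent in fully grown oocytes, so that the proteins made during maturation come from stored mRNA.

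The values are log2 intensities made by RMA, each relative to the other transcripts on its array. Array medians lay between 5.61 and 5.79, and precision is set by having 3 arrays in a group. The interquartile range of the values, or array spread, was 3.36 to 4.01 in Areg -/- MII, 4.39 to 4.67 in Areg -/- GV, 3.46 to 4.07 in wild-type MII and 3.97 to 4.59 in wild-type GV. Array spread thus moved with stage, and its part in the results was not tested beyond the fits given below. The 3' minus 5' signal of the Actb control probe sets, which reflects how intact the RNA was, was lower at MII in wild type, while the stages overlapped in Areg -/-. It was -1.18 to -0.48, -0.55 to 0.57, -1.35 to -0.99 and -0.46 to 1.16 in the same order. The Gapdh control ran the other way in wild type, at 2.79 to 3.74 in MII against 1.64 to 2.19 in GV, and overlapped in Areg -/-, at 2.13 to 3.34 in MII against 1.91 to 3.33 in GV. Of 10 oocyte markers 9 were measured, and their array medians were 11.71 to 12.01 in Areg -/- MII, 12.94 to 13.23 in Areg -/- GV, 12.07 to 12.28 in wild-type MII and 13.27 to 13.45 in wild-type GV. The 16 cumulus and granulosa markers had array medians of 4.16 to 5.53 over all groups, with group means of 2.29 to 2.50 for Lhcgr, 3.99 to 4.88 for Fshr and 8.45 to 10.59 for Cyp19a1. Their summed linear intensity was 1183 to 2042, 1151 to 1725, 1927 to 2260 and 1017 to 1439 in the order used above. The 13 measured blood, endothelial, theca and stromal markers had array medians of 4.09 to 5.35, with group means of 2.01 to 2.43 for Ptprc and 8.58 to 11.11 for Pecam1. Their summed intensity was 681 to 1041, 502 to 697, 1682 to 3232 and 917 to 1306. In every group Pecam1 and Cyp19a1 had the highest mean of their lists, so they were the largest terms of these sums. Their means in wild-type MII were 11.11 and 10.59. Areg itself stood at 2.68 ± 0.31, 2.49 ± 0.10, 2.72 ± 0.20 and 2.36 ± 0.31 (SD, n = 3), near the lowest values in every group, and it gives no check of genotype.

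The start sites of the genes that changed with stage in both genotypes are shown because they differ in CpG, the dinucleotide that these enzymes act on. Each window holds 250 bases before and 50 after an annotated start, from RefSeq on the build GRCm38.p6, read 5′ to 3′ on the gene's strand, with each CG in capitals. Of 10 genes 9 had a window, 18 windows in all, and Dppa3 had none. Dnmt3b is chr2:153649199-153649498 on the plus strand, Tet3 is chr6:83441629-83441928 on the minus strand and Trim28 is chr7:13023902-13024201 on the plus strand. For Dnmt3l the most upstream of its 3 windows is printed, chr10:78042037-78042336 on the plus strand.
Dnmt3b: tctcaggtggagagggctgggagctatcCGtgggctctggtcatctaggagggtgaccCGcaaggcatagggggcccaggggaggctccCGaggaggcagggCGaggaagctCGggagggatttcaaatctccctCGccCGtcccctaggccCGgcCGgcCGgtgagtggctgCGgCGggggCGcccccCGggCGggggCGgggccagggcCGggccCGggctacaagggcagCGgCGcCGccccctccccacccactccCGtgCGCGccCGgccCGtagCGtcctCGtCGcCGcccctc
Tet3: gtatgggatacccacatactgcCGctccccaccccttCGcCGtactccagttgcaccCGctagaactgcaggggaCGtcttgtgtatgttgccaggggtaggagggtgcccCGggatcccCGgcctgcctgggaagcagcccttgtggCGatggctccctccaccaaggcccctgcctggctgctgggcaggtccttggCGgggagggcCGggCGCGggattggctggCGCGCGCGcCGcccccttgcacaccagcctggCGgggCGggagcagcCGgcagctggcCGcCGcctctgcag
Trim28: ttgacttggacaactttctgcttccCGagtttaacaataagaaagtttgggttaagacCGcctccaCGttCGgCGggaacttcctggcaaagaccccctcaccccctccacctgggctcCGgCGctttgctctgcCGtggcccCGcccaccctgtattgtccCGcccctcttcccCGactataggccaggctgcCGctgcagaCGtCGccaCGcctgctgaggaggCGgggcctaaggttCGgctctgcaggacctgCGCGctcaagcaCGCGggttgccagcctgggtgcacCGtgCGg
Dnmt3l: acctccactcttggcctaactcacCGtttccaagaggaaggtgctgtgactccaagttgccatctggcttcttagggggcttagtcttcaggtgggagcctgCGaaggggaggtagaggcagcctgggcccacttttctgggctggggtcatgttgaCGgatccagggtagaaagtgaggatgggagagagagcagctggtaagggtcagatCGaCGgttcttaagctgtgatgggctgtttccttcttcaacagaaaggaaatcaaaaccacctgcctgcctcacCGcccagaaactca

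The motif counted was CG, which reads the same on both strands. The Dnmt3b window holds 30 CG, the Trim28 window 23 and the Tet3 window 22, whereas the 3 Dnmt3l windows hold 6, 4 and 3. Among all 32851 windows of the table the median was 7, and 11.7% held at least as many as Dnmt3b, 21.5% at least as many as Trim28, 23.1% at least as many as Tet3 and 56.4% at least as many as the Dnmt3l window shown. Dnmt1 has annotated starts with 33, 12 and 2 CG, for the windows at chr9:20952574-20952873, chr9:20952930-20953229 and chr9:20959839-20960138. The Dnmt1 probe sets held the same values for every transcript, so which of these starts the oocyte mRNA came from was not measured. The Zfp57 windows hold 6, 9 and 4 CG, those of Uhrf1 12 and 33, and those of Dnmt3a 46, 47 and 18. These counts describe the windows, and transcription was not measured.

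From GV to MII some of the 9 genes rose and others fell. Dnmt3b, Tet3 and Trim28 rose on polysomes and Dnmt3l fell in both Areg -/- and wild-type oocytes. Zfp57 fell in Areg -/- oocytes, where Dnmt3a, Dnmt1, Uhrf1 and Dppa3 did not pass the test. In limma, at an adjusted p under 0.05 over all 16579 genes, 5 of 9 passed in Areg -/- oocytes, 3 higher and 2 lower, where 28.2% of all genes passed, 13% higher and 15.2% lower. In wild-type oocytes 4 of 9 passed, 3 higher and 1 lower, where 21.6% of all genes passed, 8.97% higher and 12.6% lower. After a further quantile normalisation the split over all genes was 2501 higher and 1901 lower in Areg -/-, against 2150 and 2522 as reported, and 2016 higher and 1720 lower in wild type, against 1487 and 2087. The median change of the 9 genes was -0.44 in Areg -/- and -0.43 in wild type, against 0.30 and 0.20 over all genes. The 3 MII arrays lay all above or all below the 3 GV arrays for 8 of 9 genes in each genotype, 3 above and 5 below. Among all genes 51.6% were so separated in Areg -/-, 31.7% above and 19.9% below, and 39.2% in wild type, 21.4% above and 17.8% below.

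**Figure D1:**
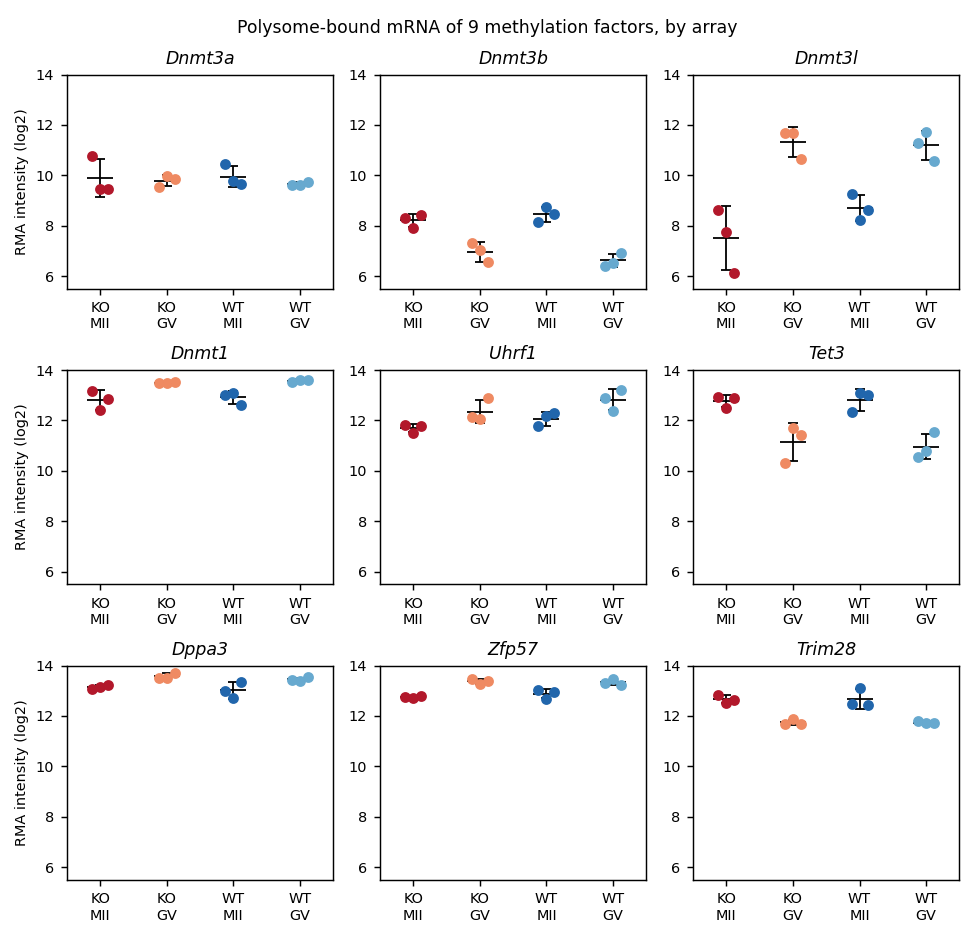
Log2 RMA intensity (vertical axis) of the 9 measured genes in the 3 arrays of each group, Areg -/- (KO) MII and GV and wild-type (WT) MII and GV from left to right; bars are the mean and SD. Dnmt3l is the gene with the widest range, from 6.14 to 11.73, while Dnmt1, Dppa3 and Zfp57 stayed above 12 on every array.

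**Figure D2:**
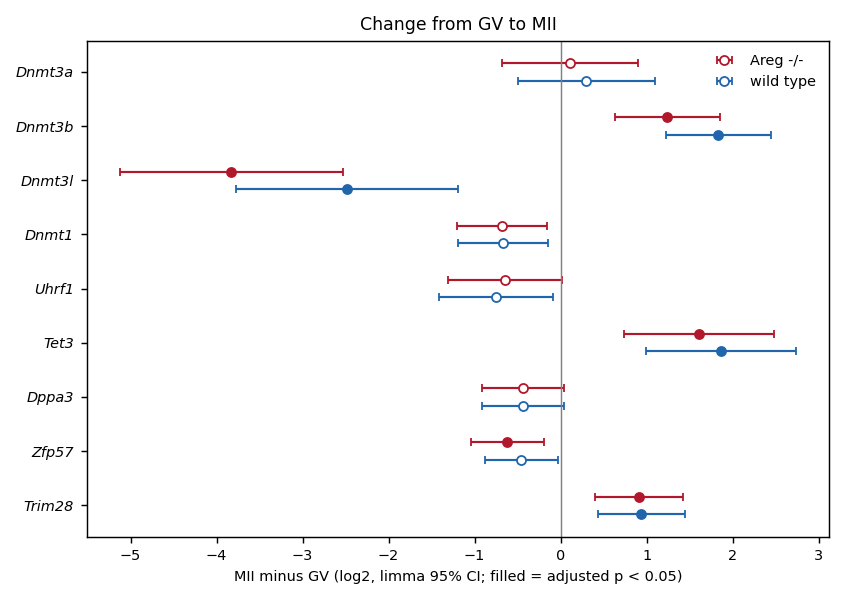
MII minus GV on the log2 scale (horizontal axis) with limma's 95% confidence interval for each gene in Areg -/- (red) and wild-type (blue) oocytes; filled points have an adjusted p under 0.05. The filled points are Dnmt3b, Dnmt3l, Tet3 and Trim28 in both genotypes and Zfp57 in Areg -/- alone.

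Of the de novo genes, Dnmt3l had the largest change. Its log2 values were 8.64, 7.75 and 6.14 in Areg -/- MII oocytes, against 11.66, 11.69 and 10.65 in Areg -/- GV oocytes. In wild type they were 9.26, 8.21 and 8.62 at MII, against 11.27, 11.73 and 10.56 at GV. In both genotypes every MII array lay below every GV array, and the Areg -/- MII arrays were spread more widely than those of the other groups, with an SD of 1.27 against 0.53 in wild-type MII. Dnmt3l fell by 3.83 on the log2 scale in Areg -/- (95% confidence interval [-5.12, -2.54]), 14.2-fold, with an adjusted p of 9.5e-04, and the change was -3.14 without Areg -/- MII replicate 3, the lowest array. In wild type it fell by 2.49 ([-3.78, -1.20]), 5.61-fold, with an adjusted p of 0.011. Only 1.93% of all genes had a lower change than Dnmt3l in Areg -/-, and 5.78% in wild type. With array spread as a covariate the change was -1.99 in Areg -/- (adjusted p = 0.13) and -1.44 in wild type (adjusted p = 0.11), and neither passed. Only the polysome fraction was analysed here, so fewer Dnmt3l transcripts per oocyte and fewer of them on polysomes cannot be told apart, nor can fewer cells and less RNA per cell in such bulk samples, which holds for every gene below.

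Dnmt3b, the de novo enzyme that acts mainly after implantation, moved the other way. It had 8.31, 7.91 and 8.42 in Areg -/- MII oocytes, against 7.32, 7.05 and 6.54 in Areg -/- GV oocytes. In wild-type oocytes it had 8.16, 8.75 and 8.45 at MII, against 6.41, 6.53 and 6.91 at GV. No MII array overlapped a GV array of its genotype. Dnmt3b rose by 1.24 on the log2 scale in Areg -/- ([0.63, 1.85], 2.36-fold, adjusted p = 0.0081) and by 1.84 in wild type ([1.22, 2.45], 3.57-fold, adjusted p = 8.8e-04). In Areg -/- the call was lost with array spread as a covariate (1.06, adjusted p = 0.19) and without the 4 arrays of narrowest spread (1.34, adjusted p = 0.061). In wild type it held in all 22 alternatives, with changes of 1.69 to 2.15.

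Dnmt3a, the main de novo enzyme of the oocyte, was measured by 2 probe sets with different values and passed the test with neither. The brighter had 10.78, 9.44 and 9.45 in Areg -/- MII against 9.55, 9.96 and 9.84 in Areg -/- GV, and 10.43, 9.78 and 9.64 in wild-type MII against 9.60, 9.62 and 9.73 in wild-type GV. The first MII array of each genotype was the highest of its group, and the groups overlapped. The change was 0.11 ([-0.69, 0.90], adjusted p = 0.83) in Areg -/- and 0.30 ([-0.50, 1.09], adjusted p = 0.58) in wild type. The other probe set gave 0.13 ± 0.31 and 0.35 ± 0.31 (SE), with adjusted p of 0.75 and 0.44. These intervals leave room for a change of up to 1.09 on the log2 scale. The Areg -/- estimate was -0.34 at its lowest and 1.00 at its highest across the alternatives, and the wild-type estimate -0.01 and 0.68. The 1.00 and the -0.01 came without the arrays of narrowest spread, a fit that leaves a single MII array in each genotype. When each array was left out in turn, the Areg -/- estimate ran from -0.34 to 0.33, so its direction was not stable. The wild-type estimate stayed positive there, at 0.06 to 0.45, though its interval above spans both directions.

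Of the maintenance genes, Dnmt1 was lower on every MII array without passing the test. Its values were 13.18, 12.42 and 12.85 in Areg -/- MII oocytes, against 13.50, 13.48 and 13.51 in Areg -/- GV oocytes. Wild-type oocytes had 13.03, 13.09 and 12.63 at MII, against 13.52, 13.62 and 13.61 at GV. The GV arrays were close together, with an SD of 0.015 in Areg -/- and 0.056 in wild type, and the MII arrays lay further apart, with an SD of 0.38 and 0.25. The difference was -0.68 ± 0.24 in Areg -/- (adjusted p = 0.054) and -0.67 ± 0.24 in wild type (adjusted p = 0.070; SE). It passed in both genotypes with trend and robust (adjusted p = 0.019 and 0.023) and with array weights (0.024 and 0.020), and in Areg -/- also without Areg -/- MII replicate 1 (0.026).

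Uhrf1, which brings Dnmt1 to replicated DNA, showed a difference of like size that did not pass either. It had 11.80, 11.51 and 11.79 in Areg -/- MII against 12.14, 12.04 and 12.88 in Areg -/- GV. In wild type it had 11.76, 12.16 and 12.28 at MII against 12.90, 12.36 and 13.21 at GV. The MII arrays lay below the GV arrays in each genotype, and replicate 3 was the highest GV array of each. The difference was -0.65 ± 0.30 in Areg -/- (adjusted p = 0.12) and -0.75 ± 0.30 in wild type (adjusted p = 0.10; SE), and it passed in none of the 22 alternatives in either genotype.

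Tet3, the dioxygenase that oxidises 5-methylcytosine in the zygote, rose on polysomes. Its values were 12.93, 12.48 and 12.87 in Areg -/- MII oocytes, against 10.30, 11.69 and 11.44 in Areg -/- GV oocytes. In wild-type oocytes they were 12.33, 13.10 and 13.03 at MII, against 10.56, 10.78 and 11.52 at GV. Every MII array lay above every GV array, and the GV groups had the wider spread. The rise was 1.61 in Areg -/- ([0.74, 2.49], 3.06-fold, adjusted p = 0.013) and 1.86 in wild type ([0.99, 2.73], 3.63-fold, adjusted p = 0.0062). Only 4.22% of all genes had a higher change than Tet3 in Areg -/-, and 3.99% in wild type. The calls were lost with array spread as a covariate (1.01, adjusted p = 0.40 in Areg -/-, and 1.52, adjusted p = 0.056 in wild type). They were also lost without the 4 arrays of narrowest spread (1.78, adjusted p = 0.10, and 2.07, adjusted p = 0.069).

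Among the imprint protection genes, Trim28, the corepressor that KRAB zinc finger proteins recruit to chromatin, rose. It had 12.84, 12.52 and 12.63 in Areg -/- MII oocytes, against 11.69, 11.87 and 11.69 in Areg -/- GV oocytes. It had 12.46, 13.11 and 12.44 in wild-type MII oocytes, against 11.80, 11.70 and 11.70 in wild-type GV oocytes. The groups did not overlap, and replicate 2 was the highest of the wild-type MII arrays. Trim28 rose by 0.91 in Areg -/- ([0.41, 1.42], 1.88-fold, adjusted p = 0.015) and by 0.94 in wild type ([0.43, 1.45], 1.92-fold, adjusted p = 0.013). The Areg -/- call was lost without Areg -/- GV replicate 1 (0.88, adjusted p = 0.0502) and with array spread as a covariate (0.78, adjusted p = 0.22). The wild-type call was lost with array spread as a covariate (0.86, adjusted p = 0.052), in the compared groups alone (0.94, adjusted p = 0.057) and without the 4 arrays of narrowest spread (0.70, adjusted p = 0.15).

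Zfp57, the zinc finger protein that binds methylated imprinting control regions and recruits Trim28, ran opposite to it. Zfp57 had 12.76, 12.71 and 12.78 in Areg -/- MII oocytes, against 13.46, 13.29 and 13.38 in Areg -/- GV oocytes. It had 13.01, 12.67 and 12.95 in wild-type MII oocytes, against 13.31, 13.45 and 13.25 in wild-type GV oocytes. The values within each group were close, and no MII array reached a GV array. In Areg -/- it fell by 0.62 ([-1.05, -0.20], 1.54-fold, adjusted p = 0.035), a call lost without any of the 6 Areg -/- arrays (changes of -0.67 to -0.58, adjusted p up to 0.11) and after a further quantile normalisation (-0.44, adjusted p = 0.084). It was also lost in the compared groups alone (-0.62, adjusted p = 0.074), among genes above median brightness (-0.62, adjusted p = 0.065), with the spread covariate (-0.40, adjusted p = 0.41) and without the 4 narrowest arrays (-0.62, adjusted p = 0.20). In wild type the difference was -0.46 ([-0.88, -0.034]) and did not pass (adjusted p = 0.12), except with trend and robust (adjusted p = 0.030).

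Dppa3, whose protein keeps Uhrf1 out of the oocyte nucleus and shields the maternal genome from Tet3, did not pass in either genotype. Its values were 13.08, 13.15 and 13.22 in Areg -/- MII against 13.51, 13.53 and 13.72 in Areg -/- GV, and 12.98, 12.71 and 13.36 in wild-type MII against 13.42, 13.39 and 13.54 in wild-type GV. The groups did not overlap, though wild-type MII replicate 3 came close to the lowest wild-type GV array. The difference was -0.44 in Areg -/- ([-0.91, 0.036], adjusted p = 0.14) and -0.43 in wild type ([-0.91, 0.039], adjusted p = 0.18).

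**Figure D3:**
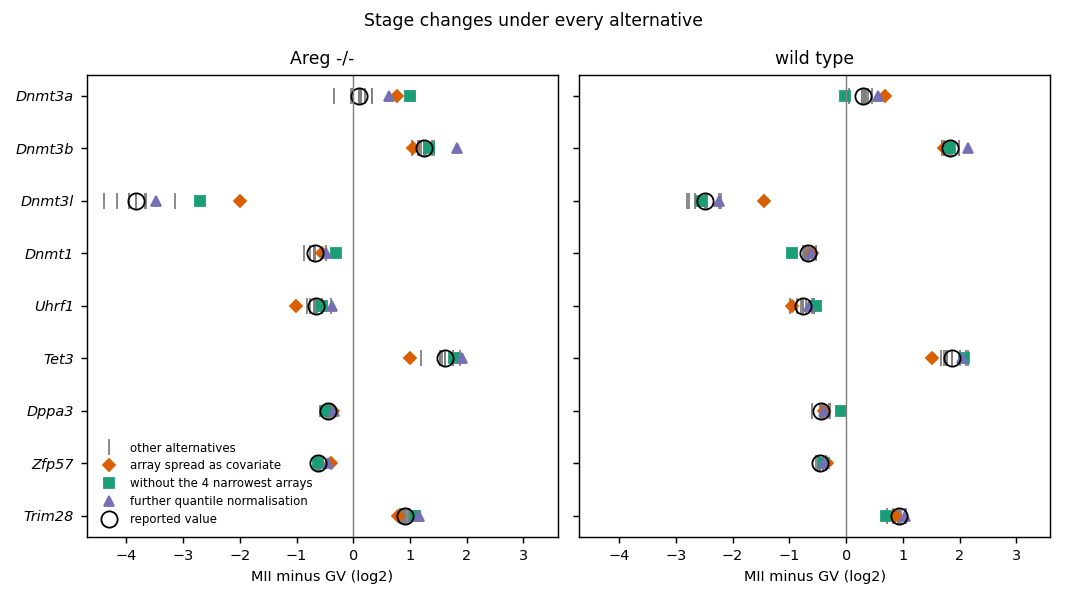
MII minus GV on the log2 scale (horizontal axis) of each gene in Areg -/- (left) and wild-type (right) oocytes, as reported (open circles) and under the 22 alternatives, 3 of which are marked by symbol. The Dnmt3l change lies nearer to 0 with array spread as a covariate, -1.99 and -1.44, and every Dnmt3b and Tet3 value lies above 0.

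The genotypes were compared at each stage to ask whether the loss of Areg alters the translated mRNA of the oocyte. At MII 0 of 9 genes passed in limma, at GV 0 of 9, and at an unadjusted p under 0.05 also 0 at either stage. Among all genes 0.0603% passed at MII, 0.00603% higher and 0.0543% lower, and 0% at GV. At an unadjusted p under 0.05 there were 1024 genes at MII, 6.18% of all, and 589 at GV, 3.55%. The groups did not overlap for 0 of 9 genes at MII, against 8.3% of all genes, 4.14% all higher and 4.16% all lower. At GV they did not overlap for 1 of 9, against 9.84% of all genes, 5.09% all higher and 4.75% all lower. That gene was Dnmt1, with 13.50, 13.48 and 13.51 in Areg -/- GV oocytes against 13.52, 13.62 and 13.61 in wild-type GV oocytes, a difference of -0.09 ([-0.61, 0.43]).

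**Figure D4:**
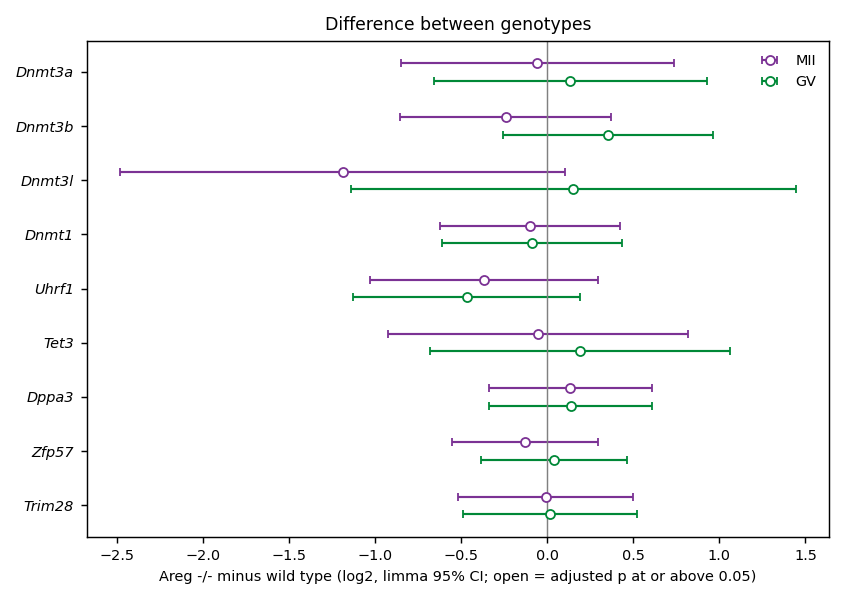
Areg -/- minus wild type on the log2 scale (horizontal axis) with limma's 95% confidence interval for each gene in MII (purple) and GV (green) oocytes; open points have an adjusted p of 0.05 or more, which holds for all 18. The widest intervals are those of Dnmt3l, -2.48 to 0.10 at MII and -1.14 to 1.44 at GV.

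The largest genotype difference among the 9 genes was that of Dnmt3l at MII, -1.19 ([-2.48, 0.10], adjusted p = 0.82). Areg -/- MII oocytes had 8.64, 7.75 and 6.14 and wild-type MII oocytes 9.26, 8.21 and 8.62, so the groups overlapped, with Areg -/- MII replicate 3 the lowest array. Without that array the Dnmt3l difference was -0.50, and over all fits without a single array it ran from -1.75 to -0.50. Without the 4 arrays of narrowest spread it was 0.02. That fit leaves a single MII array in each genotype, so it does not settle the direction. At GV the Dnmt3l difference was 0.15 ([-1.14, 1.44]). Uhrf1 was -0.37 ([-1.03, 0.29]) at MII and -0.47 ([-1.13, 0.19]) at GV, and Dnmt3b was -0.24 ([-0.85, 0.37]) at MII and 0.35 ([-0.26, 0.96]) at GV. For Zfp57, the gene with the narrowest interval, the difference was -0.13 ([-0.55, 0.30]) at MII and 0.04 ([-0.39, 0.46]) at GV. Trim28 was -0.01 ([-0.52, 0.50]) at MII and 0.02 ([-0.49, 0.52]) at GV, Tet3 was -0.06 ([-0.93, 0.82]) and 0.19 ([-0.68, 1.06]), and Dppa3 was 0.13 ([-0.34, 0.61]) and 0.14 ([-0.34, 0.61]). Dnmt1 was -0.10 ([-0.62, 0.42]) at MII, and Dnmt3a was -0.06 ([-0.85, 0.74]) at MII and 0.13 ([-0.66, 0.93]) at GV. A p that misses the threshold does not show that the genotypes act alike, and the intervals give the differences these arrays leave room for.

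The interaction asks whether the stage change itself differed between the genotypes, as the Areg -/- change minus the wild-type change. In limma 0 of 9 genes passed, 0 at an unadjusted p under 0.05, and 0% of all genes, of which 772, or 4.66%, had an unadjusted p under 0.05. Dnmt3l had the largest interaction, -1.34 ([-3.17, 0.49], adjusted p = 0.94), followed by Dnmt3b at -0.59 ([-1.46, 0.27], adjusted p = 0.94). The Dnmt3l interaction was -0.66 without Areg -/- MII replicate 3. It was -0.13 without the 4 arrays of narrowest spread, a fit that leaves a single MII array in each genotype. The Zfp57 call in Areg -/- oocytes alone is therefore not a measured difference between the genotypes, since its interaction was -0.16 ([-0.76, 0.44], adjusted p = 0.95).

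For the 4 genes that passed in both genotypes, the genes of most similar pattern were found by the root mean square difference of gene-centred log2 values over the 12 arrays. Nearest to Dnmt3b were Mcm4 at 0.17 and Stt3a at 0.23, where Dnmt3b itself varied by 0.82 around its mean. Nearest to Dnmt3l were Cdipt at 0.36 and Slc4a1ap at 0.38, against its own 1.76. Tet3 was nearest to Fam241b and Ccndbp1, both at 0.28, against 0.97, and Trim28 to Atp8b3 at 0.14 and Fam20c at 0.15, against 0.50.

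The wider methylation pathway, taken from 64 listed genes in 6 roles of which 55 were measured, also moved in both directions. In Areg -/- oocytes 11 of 55 rose and 10 fell from GV to MII, 20.0% and 18.2%, against 13% and 15.2% of all genes. In wild-type oocytes 11 rose and 6 fell, 20.0% and 10.9%, against 8.97% and 12.6%. The median change was 0.12 in Areg -/- and 0.39 in wild type, against 0.30 and 0.20 over all genes. Each role holds only 7 to 12 measured genes. The counts by role below were not tested against these shares of all genes, so they set no role apart. At MII, at GV and in the interaction 0 of 55 passed the test between the genotypes, which does not show that the genotypes act alike.

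Among the genes listed as partners of maintenance methylation, 2 of 7 rose and 1 fell in Areg -/-, and 3 rose and 1 fell in wild type. The genes that rose include, in both genotypes, Trdmt1, which acts on tRNA and is no partner of DNA methylation maintenance. Hells, a chromatin remodeller needed for methylation of repeats, rose by 1.77 ± 0.37 in Areg -/- (adjusted p = 0.0059) and by 1.46 ± 0.37 in wild type (adjusted p = 0.017; SE). Trdmt1, a methyltransferase of the Dnmt family that acts on tRNA, rose by 1.90 ± 0.62 in Areg -/- and by 2.09 ± 0.62 in wild type. Lig1, the DNA ligase of replication and repair, fell by 2.48 in Areg -/- and fell by 2.97 in wild type (SE 0.77). The Trdmt1 call held in 3 of 12 fits without a single array in Areg -/- and in 7 of 12 in wild type, and the Lig1 call in 7 and 11. Without wild-type GV replicate 1, at 12.27 against 9.48 and 9.23 in the other GV arrays, the wild-type Lig1 change was -2.002, and its call was lost without wild-type MII replicate 1. Without wild-type MII replicate 2 the Trdmt1 change in wild type was 2.98. Hells held in 12 and 10 of these fits, and its wild-type call was lost without wild-type GV replicate 3 or MII replicate 1.

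Of 12 genes of active demethylation and base excision repair, 2 rose and 4 fell in Areg -/-, and 1 rose and 2 fell in wild type. Xrcc1, the scaffold of base excision repair, had 9.45, 9.55 and 8.93 in Areg -/- MII oocytes against 11.43, 11.43 and 11.64 in Areg -/- GV oocytes. In wild type it had 9.34, 9.11 and 8.69 at MII against 11.14, 11.70 and 10.73 at GV. Xrcc1 fell by 2.19 in Areg -/- and fell by 2.14 in wild type (SE 0.30), with adjusted p of 4.5e-04 and 5.1e-04. Apex1, the endonuclease that cuts abasic sites, fell by 1.28 in Areg -/- and fell by 1.64 in wild type. Its Areg -/- call was lost after a further quantile normalisation (-0.76, adjusted p = 0.084). Parp1, the sensor of strand breaks, fell by 2.27 in Areg -/- (adjusted p = 0.016), a call lost without Areg -/- GV replicate 1. The change was -1.54 without Areg -/- MII replicate 2. In wild type the Parp1 change was -1.58 (adjusted p = 0.079). It passed there in 4 of 21 alternatives, among them the compared groups alone (adjusted p = 0.035). Gadd45a, a stress-response gene linked to demethylation, had 7.82, 7.31 and 5.15 in Areg -/- MII against 7.31, 6.37 and 6.94 in Areg -/- GV, a change of -0.11 (adjusted p = 0.92). In wild type it had 10.55, 7.77 and 9.82 at MII against 6.70, 5.94 and 5.95 at GV, a rise of 3.18 ± 0.76 (adjusted p = 0.011), or 3.99 without wild-type MII replicate 2. Its interaction was -3.29 and did not pass (adjusted p = 0.94). The genotype difference of Gadd45a at MII was -2.62, which did not pass either (adjusted p = 0.46), and ran from -3.42 to -1.81 across the alternatives.

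Of 8 methyl-CpG readers, 2 rose and 1 fell in Areg -/- and 1 rose in wild type. Mbd4, a glycosylase that binds methylated CpG, rose by 1.71 ± 0.35 in Areg -/- and by 1.93 ± 0.35 in wild type. The Areg -/- call of Mbd4 was lost with array spread as a covariate (1.37, adjusted p = 0.18). Its wild-type change was 1.49 without the 4 arrays of narrowest spread, which leaves a single MII array. Of 11 heterochromatin and imprint partners, 3 rose and 1 fell in Areg -/-, and 2 rose and 1 fell in wild type. Atf7ip, a partner of the H3K9 methyltransferase Setdb1, fell by 2.66 in wild type (adjusted p = 0.025), a call that held in 8 of 12 fits without a single array, with a change of -2.06 without wild-type MII replicate 3, and its change in Areg -/- was -1.66 (adjusted p = 0.11). Of 8 histone enzymes, 1 rose and 1 fell in Areg -/-, and 2 rose and 1 fell in wild type, with the deacetylase gene Hdac2 at -2.22 in Areg -/- and -1.22 in wild type, both called, the wild-type call being lost without wild-type MII replicate 1.

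Of 9 genes of methyl donor supply, 1 rose and 2 fell in Areg -/-, and 2 rose and 1 fell in wild type. Shmt2, the mitochondrial serine hydroxymethyltransferase, had 11.25, 10.95 and 11.21 in Areg -/- MII against 10.34, 9.24 and 9.07 in Areg -/- GV, and 11.63, 11.41 and 10.99 in wild-type MII against 8.77, 8.86 and 9.05 in wild-type GV. It rose by 1.59 ± 0.33 in Areg -/- and by 2.45 ± 0.33 in wild type. The Areg -/- call of Shmt2 was lost with array spread as a covariate (1.67, adjusted p = 0.089). Mat2a, which makes the methyl donor S-adenosylmethionine, rose by 3.06 ± 0.91 in wild type (adjusted p = 0.033), a call lost without any of the 6 wild-type arrays. In Areg -/- its change was 0.52 (adjusted p = 0.67), with GV arrays at 7.99, 8.18 and 12.18, and 1.88 without Areg -/- GV replicate 3 (adjusted p = 0.018). Of the named pathway genes, array spread as a covariate removed the Areg -/- calls of Lig1, Apex1, Parp1, Mbd4, Hdac2 and Shmt2. In wild type it removed those of Lig1, Atf7ip, Hdac2 and Mat2a. A further quantile normalisation removed the Areg -/- calls of Lig1, Apex1 and Parp1 and the wild-type call of Atf7ip.

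**Figure D5:**
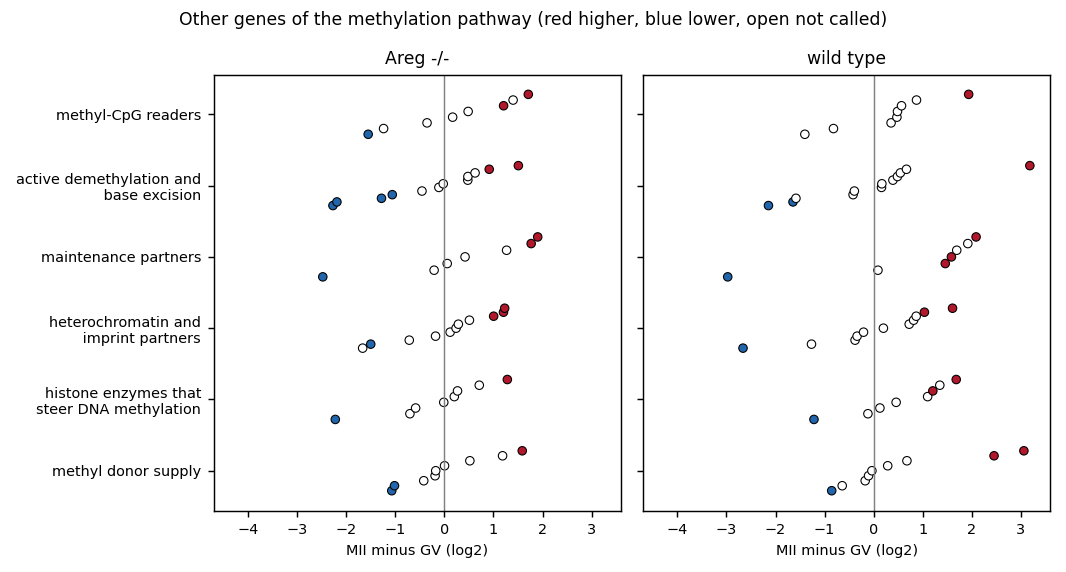
MII minus GV on the log2 scale (horizontal axis) of 55 other methylation genes by role in Areg -/- (left) and wild-type (right) oocytes; red points rose, blue points fell and open points did not pass. In both genotypes each role but the readers holds red and blue points, and the readers hold 1 red and no blue point in wild type.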

How the data were processed

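Mouse oocyte polysome RNA was amplified and hybridised to 12 arrays, 3 in each of 4 groups, grouped by the sample titles. The deposited log2 intensities were computed with RMA, according to the processing notes of the submitters, with no version or options given. The arrays' medians were close but their spreads were not, and a general shift of all mRNA cannot be seen on such a scale. The molecule label reads total RNA, whereas source and protocol read polysome-bound, which was followed. Of 23886 RefSeq-named probe sets, 21230 matched a symbol in a RefSeq table of GRCm38.p6. Each gene took its probe set of highest mean, leaving 16579 genes. There were 0 unused per-sample columns.

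All arrays entered a limma fit (3.58.1, R 4.3.3; group means, eBayes without trend), two-sided, with Benjamini-Hochberg adjustment over all genes. The fit was tested on simulated data. Genes of the list are all named; of the pathway list, per stage comparison, the 4 largest rises and falls that passed. Members and lists were chosen with earlier results of these data known. Alternatives were a further quantile normalisation, trend and robust, array weights, compared groups alone, replicate block, array spread as covariate, leaving out the 4 narrowest arrays, other probe set rules, a brightness filter and leaving out each array.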

Additional observations from a re-analysis of the deposited data

How the results depend on the processing

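The 9 genes were refitted under 10 other settings and without each of the 12 arrays, and 0 of their differences that passed in either fit changed sign. With array spread as a covariate the number of the 9 that passed from GV to MII was 0 in Areg -/- oocytes and 1 in wild-type oocytes, Dnmt3b, against 5 and 4. Without the 4 arrays of narrowest spread, which leaves a single MII array in each genotype, assumed to vary like the other groups, it was 2 in each genotype. The cause was not tested. Over the fits without a single array the number ran from 3 to 5 in Areg -/- and stayed at 4 in wild type, and the 3 came without Areg -/- GV replicate 1, where Zfp57 and Trim28 were lost. The replicate numbers were not taken as pairs in the reported fit, and whether same-numbered arrays were handled together is not settled. The deviations of same-numbered arrays correlated at -0.12 to 0.26, over 0.1 in 7 of 12 pairs. Between the genotypes at GV these correlations were 0.03 to 0.26, against -0.23 to 0.12 for other pairs. There each Areg -/- array correlated best with the wild-type array of its own number, which did not hold throughout the other comparisons. The replicate block gave 5 in Areg -/- and 4 in wild type, moved no count of the 9 genes and left 0 in the genotype comparisons. Between the genotypes and in the interaction the count among the 9 genes was 0 in each setting run. Over all genes, the Areg -/- stage count of 4672 was 1809 with the spread covariate, 2869 without the narrow arrays, 2882 without Areg -/- GV replicate 1 and 3029 without Areg -/- GV replicate 2. The wild-type stage count of 3574 was 3135 with the spread covariate. The genotype count at MII, 10, ran from 0 to 32, with 0 under the replicate block and in the compared groups alone and 32 without Areg -/- MII replicate 1. At GV it ran from 0 to 17, reached with array weights. The further quantile normalisation moved the median stage change of all genes to 0.17 in Areg -/- and 0.12 in wild type, against 0.30 and 0.20. The table gives no detection call, so signal over background was not assessed.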
